A study of Mus musculus with 16 samples.

Results

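Complex I (NADH:ubiquinone oxidoreductase) was followed through the 44 genes whose single symbol in the array annotation begins with Ndufa, Ndufb, Ndufc, Ndufs, Ndufv or Ndufaf, out of 18168 genes measured. Of these members, 36 carry structural-subunit symbols and 8 are the assembly factors Ndufaf1 to Ndufaf8. RNA came from cerebellum and hippocampus of mice overexpressing mutant Twinkle, the mitochondrial DNA helicase, and of wild-type (wt) mice, with 4 Affymetrix arrays per genotype and region and 16 in all. The series calls the transgenic line deletor and offers it as an animal model of progressive external ophthalmoplegia (PEO), a disorder with deletions in mitochondrial DNA. Replicates 1 to 4 had ages of 26, 24, 21 and 23 months among wild types and of 24, 24, 21 and 21 months among mutants, the same in both regions. The labels give no promoter for the transgene, no strain and no sex, and do not say which cerebellum and hippocampus came from 1 animal. P-values therefore measure the spread between these samples.

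Complex I takes electrons from NADH to ubiquinone and pumps protons across the inner mitochondrial membrane. A matrix arm carries flavin and iron-sulfur clusters, a membrane arm carries the proton channels, and supernumerary subunits surround both. The hydrophobic channel subunits are encoded in mitochondrial DNA, which Twinkle unwinds for replication, while every member described here is encoded in the nucleus. Assembly factors build intermediates of the enzyme and are not part of the finished complex. In brain, complex I supplies much of the proton gradient used for ATP, and its inherited defects often affect cerebellum and brainstem.

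The deposited values were relative. Every probe set was centred on the median of the 8 arrays of its region, so a value of 0.10 means 0.10 log2 units above the region's median array. No expression level remains, regions cannot be compared in level, and the labelled tissues could not be checked by the level of their markers. Differences between genotypes are given in log2 units as mutant minus wild type, each with its standard error (SE). In bulk tissue, fewer cells of a type and less RNA per cell cannot be told apart.

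Promoter sequence is shown first because nuclear respiratory genes are known targets of shared transcription factors. RefSeq (GRCm38.p6) held 41 promoters for 39 members, each 250 bases before to 50 after the start. Motifs were searched on both strands. The NRF1 motif (GCGCA, any base, GCGC) was found in 19.5% of member promoters, against 7.43% for genes on the array and 4.6% of all 32851 promoters in the table. The YY1 motif AAGATGGC was found in 17.1%, against 3.38% and 2.75%. The ERR motif AAGGTCA was in 7.32% of member promoters (3.93% and 4.72%) and the GABP/ETS motif CCGGAAG in 14.6% (13.0% and 8.86%). The Sp1 motif GGGCGG was in 53.7% (52.3% and 35.7%). NRF1 matches were in Ndufa5, Ndufa6, Ndufa8, Ndufb4, Ndufs5 and the assembly factors Ndufaf4 and Ndufaf5. These matches are letters in a window and say nothing of binding in these samples.

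The 120 bases before the start are printed for the 4 members described below whose genotype difference varied most between regions among those with a motif there, with NRF1, GABP/ETS and ERR matches in capitals. Ndufaf1 (chr2:119662835-119662954, minus strand) and Ndufs3 (chr2:90904722-90904841, minus strand) each held 1 GABP/ETS match. The match in Ndufs3 overlapped an Sp1 match. Ndufb4 (chr16:37654369-37654488, minus strand) held 2 NRF1 matches with an ERR match between them. Ndufaf4 (chr4:24897963-24898082, plus strand) held 1 NRF1 match.
Ndufaf1: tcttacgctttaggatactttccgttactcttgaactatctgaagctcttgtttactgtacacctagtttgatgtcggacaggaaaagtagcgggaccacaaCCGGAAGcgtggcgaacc
Ndufs3: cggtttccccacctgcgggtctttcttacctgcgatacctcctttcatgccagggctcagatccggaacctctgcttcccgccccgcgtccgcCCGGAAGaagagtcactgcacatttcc
Ndufb4: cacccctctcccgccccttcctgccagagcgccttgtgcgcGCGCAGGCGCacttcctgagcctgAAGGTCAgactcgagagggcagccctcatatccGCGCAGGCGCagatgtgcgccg
Ndufaf4: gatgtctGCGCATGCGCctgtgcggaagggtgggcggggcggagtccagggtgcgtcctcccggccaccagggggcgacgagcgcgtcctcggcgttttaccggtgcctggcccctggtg

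Some arrays stood apart. The poly-A spike-in controls averaged 0.55 and 0.59 on mutant cerebellum replicates 2 and 4, against 0.045 at most on the other cerebellum arrays. Of the 8 hippocampus arrays, 5 (mutants 1, 3 and 4, wild types 1 and 3) had a mean above 0.5 on a marker list of another tissue or cell type. The cerebellar granule neuron list averaged 2.18 and the Purkinje list 1.73 on wild-type hippocampus replicate 1, and the choroid plexus list 1.94 on mutant hippocampus replicate 4. On mutant hippocampus replicate 1 the granule neuron list averaged 0.69, the Purkinje list 0.53 and the meningeal list 0.91. In cerebellum the choroid plexus list was 0.66 on wild type 1 and -1.31 on mutant 4, and on mutant 2 the pyramidal neuron list was 0.50 and the meningeal list 0.36. The blood cell list was lower on every mutant than on every wild-type array, at -0.087 to -0.032 against 0.035 to 0.27 in cerebellum and -0.20 to -0.045 against 0.045 to 0.54 in hippocampus. In hippocampus the dentate granule neuron list was also lower on every mutant, at -0.19 to 0.025 against 0.037 to 0.375 in wild types. The genotype medians, the difference between regions and some genes are given below with and without the spike-in arrays or the hippocampus arrays with raised markers. Age, ND5 and the averaged count are not given without them. The part of the blood cell and dentate granule neuron lists in the results was not tested. Twnk itself, the mouse gene for Twinkle, differed by 0.063 (SE 0.051) in cerebellum and 0.064 (SE 0.051) in hippocampus, with overlapping groups and adjusted p of 0.91 and 0.77 (limma). Which transcript the transgene makes, and whether the probe sets detect it, is not given in the labels.

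The first question was whether complex I transcripts differed with mutant Twinkle in cerebellum. Most differences were small and above 0. In all, 39 of 44 members had a mutant mean above the wild-type mean, against 53.6% of all genes, and the median difference was 0.069 against 0.0074 over all genes. The shift was not particular to complex I. Above 0 were also 70 of 76 mitochondrial ribosomal protein genes (median 0.083) and 34 of 46 nuclear genes of complexes II to V (median 0.029). All 8 assembly factors lay above 0 (median 0.094, from 0.062 for Ndufaf8 to 0.17 for Ndufaf6), as did 31 of 36 structural subunits (median 0.058). By position in the enzyme, 5 of 6 core subunits were above 0 (median 0.032), 8 of 9 supernumerary matrix-arm subunits (0.091) and 17 of 19 membrane-arm subunits (0.065). No member passed the test: limma with Benjamini-Hochberg adjustment over all genes called 0 members and 0.0% of genes. At an unadjusted p under 0.05 there was 1 member, against 5.39% of genes. No member had groups that did not overlap, against 1.44% of genes with mutants higher and 1.02% with mutants lower.

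The cerebellum members with the smallest p were mostly accessory (supernumerary) subunits. So are most of the 44 members, with 9 such subunits in the matrix arm and 19 in the membrane arm. Ndufb3, a membrane-arm subunit, read 0.029, 0.13, -0.018 and 0.048 in mutants and 0.018, -0.16, -0.12 and -0.048 in wild types. Wild type 1 lay inside the mutant range and the other wild types below it, giving a difference of 0.13 (SE 0.050, adjusted p = 0.88, limma). Ndufaf1, a factor of the complex that builds the membrane arm, read -0.023, 0.23, 0.050 and 0.16 in mutants and 0.023, -0.15, -0.064 and -0.053 in wild types. Mutants 2 and 4 were highest and wild type 2 was lowest, and the groups overlapped through mutant 1 and wild type 1 (difference 0.16, SE 0.079, adjusted p = 0.88). Ndufb5, another membrane-arm subunit, read 0.013, 0.034, 0.020 and 0.13 in mutants against -0.059, -0.12, 0.020 and -0.031 in wild types.
Ndufs4, a matrix-arm subunit whose loss causes encephalopathy in mice, read -0.007, 0.14, 0.015 and 0.11 in mutants and 0.071, -0.14, -0.069 and -0.063 in wild types. Its difference was 0.11 (SE 0.058, adjusted p = 0.88), but its 4 probe sets ranged from -0.043 to 0.29. Mutants 2 and 4 were again the highest arrays and wild type 2 the lowest.

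The 5 members below 0 in cerebellum were Ndufa4l2, Ndufb8, Ndufs3, Ndufv3 and Ndufb9. Ndufa4l2, a paralogue of Ndufa4 known to be induced by low oxygen, had the lowest value, -0.13 (SE 0.064, adjusted p = 0.88). It read -0.024, -0.026, 0.077 and -0.22 in mutants and 0.096, 0.012, -0.012 and 0.21 in wild types, so mutant 4 and wild type 4 were the ends of an overlapping range. Ndufa4, which is now assigned to cytochrome c oxidase, read -0.20, 0.041, 0.020 and 0.007 in mutants and 0.049, -0.11, -0.20 and -0.007 in wild types. It differed by 0.035 (SE 0.065) and turned to -0.021 without mutants 2 and 4.
Ndufb8, a membrane-arm subunit, read -0.042, 0.009, 0.004 and -0.032 in mutants against 0.10, -0.019, -0.11 and 0.075 in wild types. Ndufs3, a core subunit near the quinone site, read -0.005, 0.013, 0.053 and -0.051 in mutants against 0.18, 0.001, -0.053 and -0.001 in wild types. Ndufv3, at the NADH-oxidising tip, read 0.002, 0.098, -0.094 and -0.002 in mutants against 0.055, -0.062, 0.12 and -0.013 in wild types. The groups overlapped in each of these subunits, and in Ndufb8 and Ndufs3 the mutants lay within the wild-type range.

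Most members lay on the same side of 0 on some arrays. The median over members was -0.0062, 0.097, -0.001 and 0.039 on cerebellum mutants 1 to 4 and 0.029, -0.12, -0.034 and -0.030 on the wild types. Mutant 2 had 40 of 44 members above 0 and wild type 2 had 5. The medians of 46 nuclear genes of complexes II to V were 0.049 on mutant 2 and -0.057 on wild type 2, and those of 76 mitochondrial ribosomal protein genes were 0.10 and -0.11. Both comparison groups were thus highest and lowest on the same cerebellum arrays as complex I. Without mutants 2 and 4, those with raised spike-in, 30 members were above 0 and the cerebellum median was 0.024. Without wild type 2 the count was 37 and the median 0.040, and without wild type 1 they were 42 and 0.091.

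**Figure D1:**
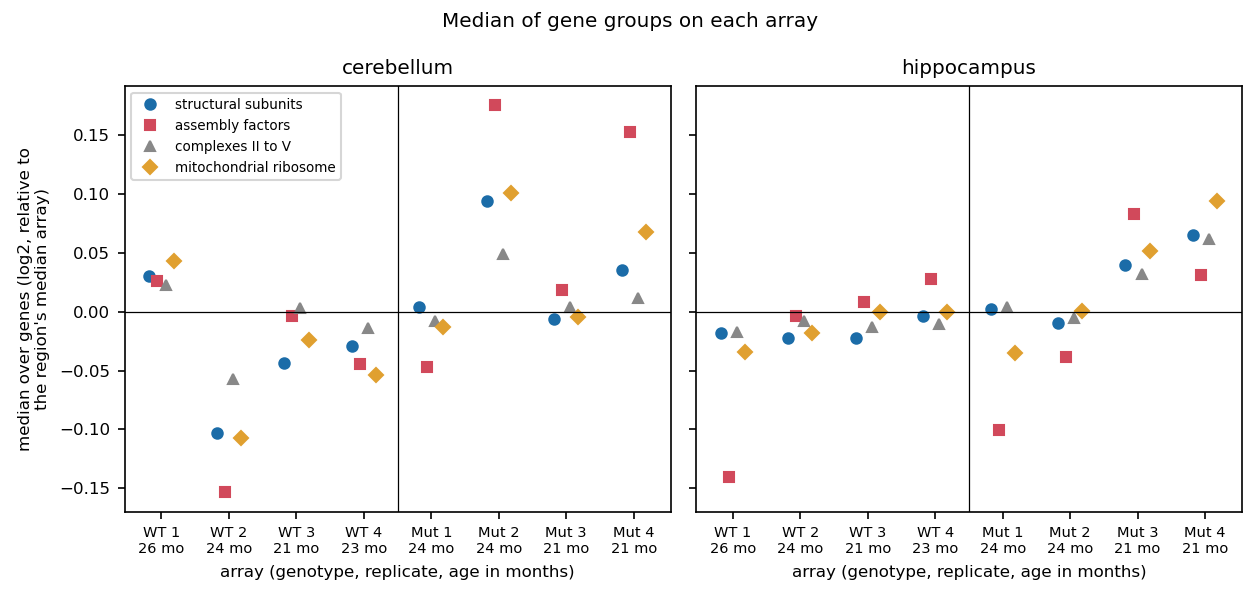
Median over genes (log2 units relative to the region's median array) of structural subunits, assembly factors, complexes II to V and mitochondrial ribosomal proteins on each of the 16 arrays, with age in months (mo). WT is wild type and Mut mutant; 1 point is 1 array and gene group, and cerebellum mutant 2 and wild type 2 hold the ends of the structural medians at 0.094 and -0.10.

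In hippocampus, 34 of 44 members had a mutant mean above the wild-type mean, against 58.9% of all genes, with a median of 0.045 against 0.020 over all genes. Of the mitochondrial ribosomal protein genes 65 of 76 (median 0.038) were above 0, and of complexes II to V 36 of 46 (median 0.045). The 6 core subunits were all above 0 (median 0.060, from 0.011 for Ndufs1 to 0.16 for Ndufs8). Of the supernumerary subunits, 6 of 9 in the matrix arm (median 0.074) and 15 of 19 in the membrane arm (median 0.031) were above 0, and so were 6 of 8 assembly factors (median 0.038). Limma called 0 members and 0.0% of genes after adjustment. Unadjusted p was under 0.05 for 2 members, against 8.03% of genes. The groups of 1 member, Ndufv2, did not overlap with mutants higher (difference 0.045, SE 0.049), against 3.24% of genes. No member showed the reverse, against 1.52% of genes.

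Ndufs8, a core iron-sulfur subunit close to the quinone site, had the smallest p in hippocampus. It read 0.039, -0.013, 0.054 and 0.24 in mutants and -0.14, -0.17, -0.055 and 0.038 in wild types. Mutant 4 was highest, and the groups overlapped because wild type 4 lay above mutant 2. The difference was 0.16 (SE 0.063, adjusted p = 0.54, limma), and all 6 of its probe sets were above 0, from 0.11 to 0.27. Ndufa7, a matrix-arm subunit, read 0.062, -0.010, 0.026 and 0.23 in mutants and -0.14, -0.14, -0.034 and 0.027 in wild types. Its 5 probe sets ranged only from 0.14 to 0.16 around a difference of 0.15 (SE 0.062, adjusted p = 0.58).
Ndufs3 read 0.11, -0.006, 0.006 and 0.15 in mutants and -0.069, -0.050, -0.057 and 0.014 in wild types (difference 0.10, SE 0.056). Ndufb11, an X-linked membrane-arm subunit, read 0.019, -0.007, 0.028 and 0.13 in mutants and -0.10, -0.040, -0.050 and 0.003 in wild types (difference 0.088, SE 0.047). In these 4 genes mutant 4, the array with raised choroid plexus markers, was the highest of the 8.

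Of the members below 0 in hippocampus, Ndufb4, a membrane-arm subunit, was the farthest, at -0.16 (SE 0.092, adjusted p = 0.65). It read -0.099, -0.032, 0.032 and -0.10 in mutants and 0.36, 0.10, -0.10 and 0.087 in wild types. Wild type 1, the array with raised cerebellar markers, was highest, and without it the difference was -0.079. The gene rested on 1 probe set. A pair of further probe sets that match Ndufb4 and near-identical copies were left out of the gene's value and differed by 0.052 (SE 0.057) and 0.0067 (SE 0.059). Ndufaf4, an early factor of the matrix arm, read -0.28, -0.054, -0.014 and 0.018 in mutants and -0.009, 0.023, 0.030 and 0.025 in wild types. Mutant 1 set most of its difference of -0.10 (SE 0.087, adjusted p = 0.78), which was -0.034 without that array. That array also had raised cerebellar and meningeal markers.
Ndufaf1 read -0.20, -0.030, 0.096 and -0.053 in mutants and -0.16, 0.030, 0.19 and 0.041 in wild types, with the groups overlapping over most of their range (difference -0.071, SE 0.079). That difference was -0.13 without wild type 1 and -0.015 without wild type 3, where the difference between regions was -0.30 and -0.18. Ndufb10, a membrane-arm subunit, read -0.070, -0.098, 0.031 and 0.029 in mutants and 0.036, -0.036, -0.002 and 0.002 in wild types. Ndufa4 read 0.086, -0.080, 0.050 and 0.089 in mutants and -0.027, -0.037, -0.046 and 0.027 in wild types. Ndufa4l2 read 0.018, 0.017, -0.076 and -0.019 in mutants and -0.017, -0.060, 0.063 and 0.018 in wild types. Neither Ndufa4 (0.057, SE 0.065) nor Ndufa4l2 (-0.016, SE 0.064) differed beyond its spread.

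**Figure D2:**
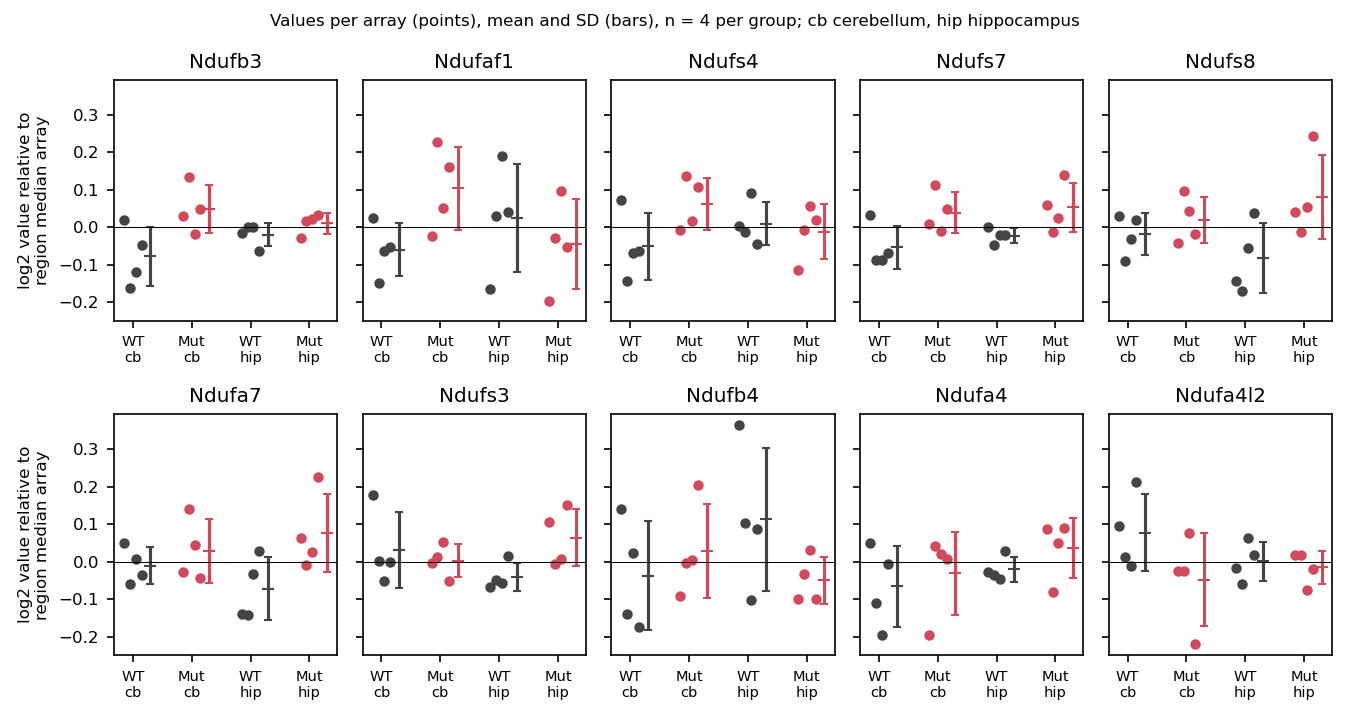
Values of 10 members on each array (log2 units relative to the region's median array), with wild type (WT, grey) and mutant (Mut, red) in cerebellum (cb) and hippocampus (hip). Points are arrays and bars the mean and SD (n = 4); every group pair shown overlaps, and hippocampus mutant 4 is the highest hippocampus point for Ndufs8 at 0.24 and Ndufa7 at 0.23.

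The hippocampus medians over members were -0.013, -0.012, 0.054 and 0.061 on mutants 1 to 4 and -0.028, -0.013, -0.013 and -0.00072 on the wild types. Mutants 3 and 4 stood above the rest, each with 37 of 44 members above 0. The ribosomal medians on these arrays were 0.052 and 0.094 and those of complexes II to V 0.032 and 0.061. Without mutant 4 alone the median genotype difference was 0.024. Leaving out the 5 hippocampus arrays with raised markers left 1 mutant and 2 wild types. In that fit 24 members were above 0 and the median was 0.0074, with the lone mutant assumed to vary like the other groups. Ndufs8 was then 0.053 and Ndufa7 0.048.

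**Figure D3:**
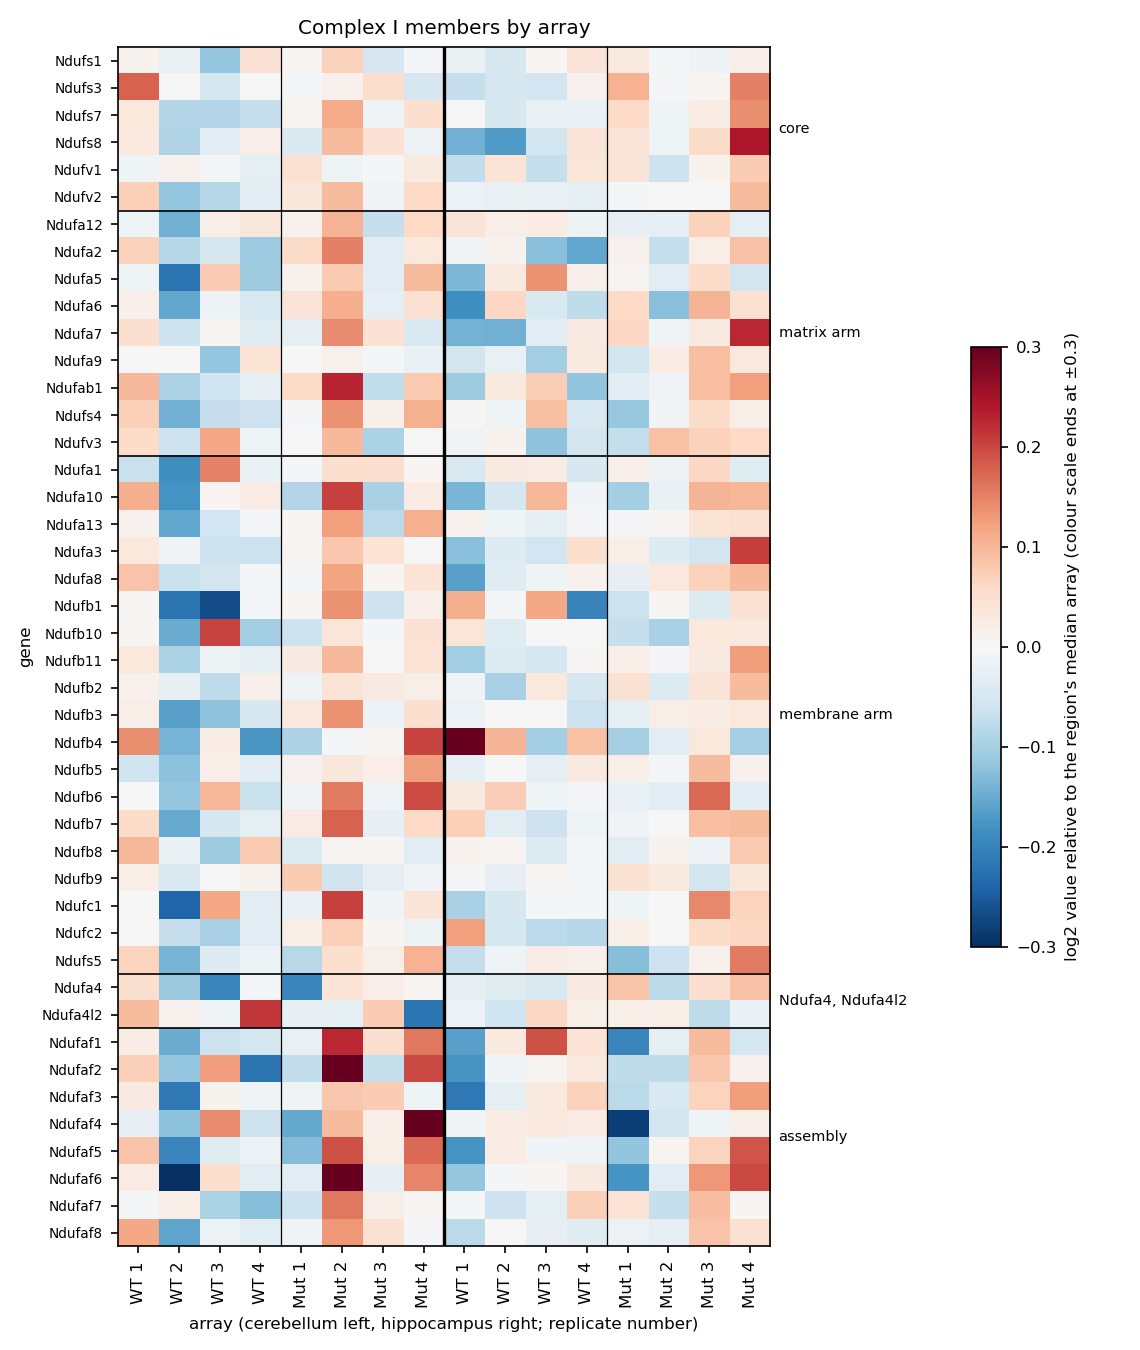
Each member's value (colour, log2 units relative to the region's median array, scale ending at 0.3 either way) on each array, wild type (WT) then mutant (Mut), cerebellum left and hippocampus right, grouped by role. Cerebellum mutant 2, with 40 of 44 members above 0, and wild type 2, with 5, are the extremes. Hippocampus mutants 3 and 4 have 37 each, cerebellum wild type 1 has 35 and cerebellum wild type 4 has 9. Cerebellum mutant 3 and hippocampus wild type 4 have 22 each.

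Taking both regions as 1 average per genotype and replicate number, 39 of 44 members were above 0, against 58.7% of all genes, with a median of 0.056. So were 74 of 76 mitochondrial ribosomal protein genes (median 0.061) and 41 of 46 genes of complexes II to V (median 0.047). All 6 core and all 9 supernumerary matrix-arm subunits were above 0. Limma called 0 members and 0.0% of genes. The 5 members with an unadjusted p under 0.05 (8.51% of genes) were Ndufa6, Ndufa7, Ndufs8, Ndufb11 and Ndufs7. All 5 were structural subunits, as were 36 of the 44 members. Ndufa6, a matrix-arm subunit, differed by 0.086 (SE 0.034, adjusted p = 0.57). Its cerebellum values were 0.038, 0.11, -0.027 and 0.045 in mutants and 0.015, -0.16, -0.015 and -0.045 in wild types. Its hippocampus values were 0.060, -0.13, 0.10 and 0.045 in mutants and -0.19, 0.062, -0.045 and -0.077 in wild types, so the groups overlapped in both regions.
Ndufa7 averaged 0.094 (SE 0.038), from 0.039 in cerebellum and 0.15 in hippocampus. Its cerebellum values were -0.028, 0.14, 0.044 and -0.045 in mutants and 0.049, -0.061, 0.006 and -0.037 in wild types.

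The difference between regions, hippocampus minus cerebellum, was tested as an interaction. Limma called 0 members and 0.0% of genes, and no member had an unadjusted p under 0.05, against 5.35% of genes. Only 15 of 44 members lay above 0, against 54.9% of genes, with a median of -0.019. Mitochondrial ribosomal protein genes had 24 of 76 above 0 (median -0.028) and complexes II to V 28 of 46 (median 0.021). All 8 assembly factors lay below 0 (median -0.090), with Ndufaf1 at -0.23 (SE 0.11), Ndufaf4 at -0.18 and Ndufaf2, which acts late and makes way for Ndufa12, at -0.13. The structural subunits divided 15 above and 21 below, from Ndufb4 at -0.23 (SE 0.13) to Ndufs3 at 0.13 (SE 0.079) and Ndufs8 at 0.13 (SE 0.089).
Ndufaf1, Ndufb4, Ndufs3 and Ndufs8 had adjusted p between 0.87 and 0.88 (limma). Ndufb4 read -0.092, -0.004, 0.004 and 0.20 in cerebellum mutants and 0.14, -0.14, 0.023 and -0.17 in cerebellum wild types. For the probe sets it shares with near-identical copies, the difference between regions was 0.0052 (SE 0.081) and -0.058 (SE 0.084). Ndufs8 read -0.043, 0.095, 0.043 and -0.018 in cerebellum mutants and 0.030, -0.091, -0.033 and 0.020 in wild types. The cerebellum groups overlapped in both genes. The count of 15 members above 0 depended on few arrays. It was 24 without cerebellum mutant 2 or without cerebellum wild type 2, 27 without mutants 2 and 4 and 9 without the hippocampus arrays with raised markers.

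**Figure D4:**
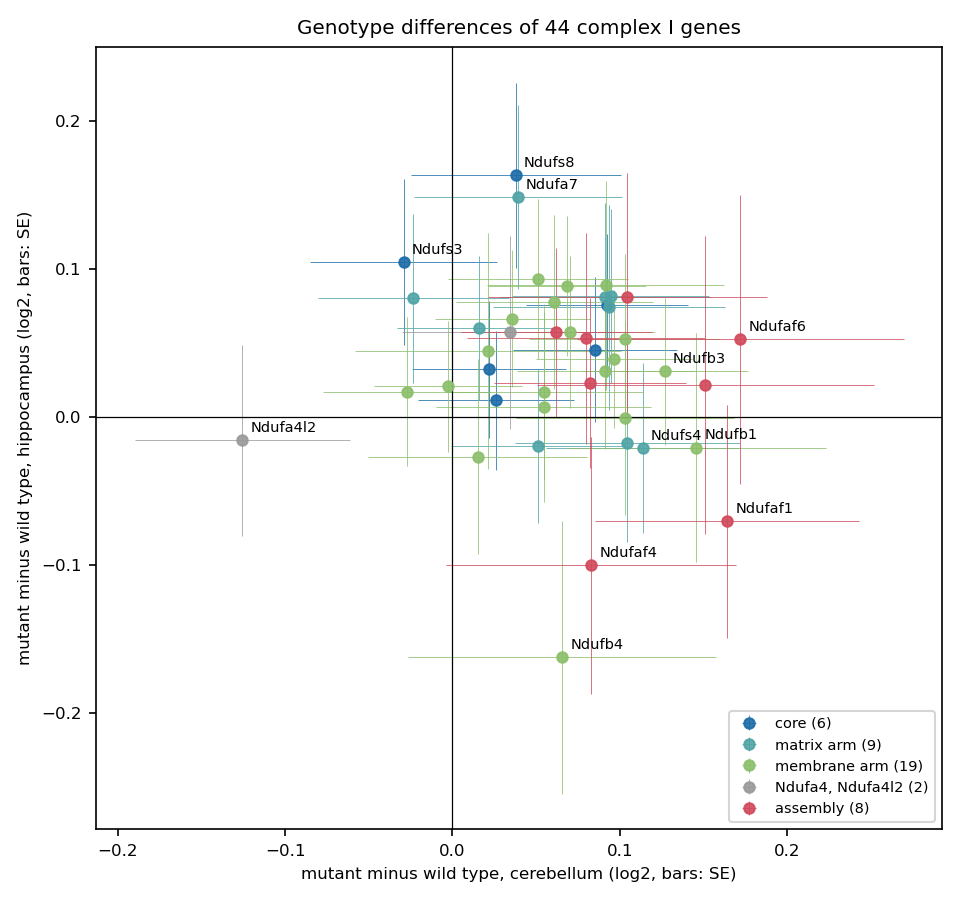
Mutant minus wild type (log2) in cerebellum (horizontal) and hippocampus (vertical) for the 44 members, coloured by role, with SE bars. The 8 assembly factors all lie right of 0, from 0.062 to 0.17 in cerebellum, and Ndufaf1 and Ndufaf4 lie below 0 in hippocampus at -0.071 and -0.10.

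Structural subunits and assembly factors were compared directly by the gap between their medians. For the genotype difference, structural minus assembly was -0.036 in cerebellum and 0.0074 in hippocampus. The cerebellum gap was -0.091 without mutant 1 and -0.019 without mutant 2. The hippocampus gap was -0.011 without wild type 3 and 0.032 without wild type 1, so its sign turned with 1 array. For the difference between regions the gap was 0.077, from 0.031 to 0.11 with 1 array left out at a time. For age it was 0.091 in hippocampus (0.053 to 0.135) and 0.040 in cerebellum (-0.0097 to 0.066). For the genotype difference averaged over regions it was -0.012. None of these gaps was tested. On single arrays this gap was 0.051, -0.081, -0.024 and -0.12 in cerebellum mutants and 0.0042, 0.050, -0.040 and 0.015 in cerebellum wild types. It was 0.10, 0.029, -0.043 and 0.033 in hippocampus mutants and 0.12, -0.019, -0.030 and -0.032 in hippocampus wild types. The genotypes overlapped in both regions. The pooled SD within groups had a median of 0.12 over the 8 factors, 0.073 over the 36 structural genes and 0.11 over all genes, a difference in spread that was not tested. Ndufaf7 (0.073) and Ndufaf8 (0.072) lay at the structural median. Assembly factor medians ran from -0.15 to 0.18 across cerebellum arrays and from -0.14 to 0.083 across hippocampus arrays.
Ndufaf6, an early factor, had wide-ranging values. It read -0.031, 0.30, -0.024 and 0.15 in cerebellum mutants and 0.024, -0.34, 0.052 and -0.035 in cerebellum wild types, with a difference of 0.17 (SE 0.098, adjusted p = 0.88).

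Age ran within every group, and replicates 1 and 2 (24 months or older) were set against replicates 3 and 4 (23 months or younger) across both genotypes. Whatever else the replicate numbers share cannot be told apart from age. In hippocampus 6 of 44 members were higher in older animals, against 45.3% of all genes, with a median of -0.047 against -0.0094 over all genes. All 8 assembly factors lay below 0 (median -0.12). So did 30 of 36 structural subunits (median -0.030), among them all 6 core subunits (median -0.029). The assembly factor median was -0.10 and -0.039 on older mutants 1 and 2 and -0.14 and -0.0036 on older wild types 1 and 2. Replicate 1 of both genotypes, on the older side, had raised cerebellar markers. On the younger side, mutants 3 and 4 had raised ependymal markers (0.51 and 0.57). The part of these markers in the age difference was not tested. Limma called 0 members, against 0.0661% of genes, and an unadjusted p under 0.05 was found for 2 members, against 6.55% of genes.
The 5 members whose older arrays all lay below all younger ones were Ndufa10, Ndufs5, Ndufaf2, Ndufaf3 and Ndufaf6, against 1.72% of genes. No member showed the reverse, against 1.78% of genes.

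Ndufaf3, the partner of Ndufaf4 in early matrix-arm assembly, had the smallest p for age in hippocampus. It read -0.081 and -0.046 in older mutants and 0.067 and 0.13 in younger ones, and -0.22 and -0.030 in older wild types against 0.030 and 0.068 in younger ones. The older arrays lay below the younger ones in both genotypes, at -0.17 (SE 0.065, adjusted p = 0.75, limma). Ndufs8 was lower by age as well, at -0.14 (SE 0.061, adjusted p = 0.75), with overlapping groups. Ndufb4 (0.10, SE 0.088) and Ndufc2 (0.035, SE 0.053), both membrane-arm subunits, lay above 0. The probe sets that Ndufb4 shares with near-identical copies lay below 0, at -0.047 (SE 0.061) and -0.057 (SE 0.065). Ndufc2 read 0.018, 0.002, 0.054 and 0.062 in mutants and 0.12, -0.052, -0.078 and -0.086 in wild types. The 76 ribosomal protein genes had 10 above 0 (median -0.065) and the 46 genes of complexes II to V had 11 (median -0.022), so both of these groups lay mostly below 0 in older hippocampus too.

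In cerebellum the age difference was near 0. There 27 of 44 members were higher in older animals, against 52.6% of genes (median 0.014), and the count was 13 without wild type 1, whose age of 26 months was the highest. Limma called 0 members and 0.0% of genes. No member had an unadjusted p under 0.05 (3.71% of genes) or groups that did not overlap (1.49% of genes with older higher and 0.765% lower). Ndufaf4 was lowest at -0.15 (SE 0.083), with -0.15 and 0.095 in older mutants, 0.020 and 0.30 in younger mutants, -0.024 and -0.12 in older wild types and 0.14 and -0.062 in younger ones. Ndufa1, an X-linked membrane-arm subunit, was at -0.098 (SE 0.057), with -0.005 and 0.048 against 0.051 and 0.005 in mutants and -0.066 and -0.18 against 0.15 and -0.019 in wild types.
Ndufa2, of the matrix arm, was at 0.087 (SE 0.055), with 0.056 and 0.15 against -0.032 and 0.032 in mutants and 0.070 and -0.085 against -0.049 and -0.11 in wild types. Ndufab1, the mitochondrial acyl carrier protein, was at 0.093 (SE 0.070), with 0.057 and 0.23 against -0.075 and 0.078 in mutants and 0.098 and -0.096 against -0.060 and -0.029 in wild types. In each of these genes the older and younger arrays overlapped.

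Other genes of the pathway came from lists of further assembly factors, mitochondrially encoded subunits and regulators of mitochondrial biogenesis. None of their members passed the limma test in either region. Of 10 further assembly factors measured, 8 were above 0 in cerebellum (median 0.086) and 9 in hippocampus (median 0.062). Lyrm2 (0.18, SE 0.096) and Foxred1 (0.11, SE 0.061) had the smallest p in cerebellum, and Dmac1 (0.15, SE 0.059) and Nubpl, an iron-sulfur cluster carrier (0.14, SE 0.099), in hippocampus. Of 10 regulators, 4 were above 0 in cerebellum and 2 in hippocampus. Nrf1, the factor of the NRF1 motif, was at -0.12 (SE 0.063) and Tfam, which packages mitochondrial DNA, at 0.10 (SE 0.058) in cerebellum. Ppargc1a, a coactivator of these factors, was at 0.12 (SE 0.065) and Gabpb1 at -0.16 (SE 0.12) in hippocampus.
The 1 mitochondrially encoded subunit measured, ND5 of the membrane arm, lay below 0 in both regions. Its hippocampus values were -0.21, -0.048, -0.19 and -0.21 in mutants and 0.052, 0.086, 0.061 and 0.048 in wild types. Every mutant lay below every wild type, as for 1.52% of genes, at -0.23 (SE 0.062, adjusted p = 0.43, limma), while 34 of 44 nuclear members were above 0. In cerebellum ND5 was at -0.069 (SE 0.062) with overlapping groups.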

How the data were processed

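Per the labels' protocols, 5 ug of Trizol-extracted RNA gave biotin cRNA for the arrays. The submitters' processing notes list GCOS 4.0. How probes were summarised, normalized and centred was not given in the sources used here. The authors deposited relative values on a log scale, read here as log2. The base is not stated, and natural logs would multiply every difference by 1.44. After rounding, medians over each region's 8 arrays lay within 1e-05 of 0 for 100.0% of probe sets. The free-text description of hippocampus samples names cerebellum, while title, source and tissue name hippocampus, which was followed.

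Probe sets with 1 symbol (34843 of 44904 analysed) were averaged per gene. The 44 members rested on 87 probe sets. A further 10 with several symbols were left out, and 1 with an empty value. limma 3.58.1 in R 4.3.3 used group means over all 16 arrays, two-sided tests, Benjamini-Hochberg adjustment over 18168 genes and a threshold of 0.05. The averaged comparison used 8 values, and age was tested with genotype kept apart. Scripts were tested on simulated data. Members, lists and named genes (the 4 of smallest p per direction and region, 2 for other comparisons, the leading Ndufaf gene per region, Ndufa4 and Ndufa4l2) were chosen with earlier results of these data known. Alternatives covered normalization, centring, probe sets, variance model, age, blocks, the log base and left-out arrays. The number of arrays limits the precision.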

Additional observations from a re-analysis of the deposited data

Results flagged for a closer look

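The values of 21 genes and 3 medians over genes were examined in each group, 96 combinations in all. By Dixon's test, 3 combinations had 1 array set far off from the other arrays of its group of 4. Chance gives about 1 in 20. Ndufa4 read -0.195 on mutant cerebellum replicate 1, while the other mutants read 0.007 to 0.041. Ndufaf3 read -0.214 on wild-type cerebellum replicate 2, the array with the lowest member median, while the other wild types read -0.011 to 0.028. Ndufc2 read 0.124 on wild-type hippocampus replicate 1, the array with raised cerebellar markers, while the others read -0.086 to -0.052.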

How the results depend on the processing

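No member was called under any alternative run. The smallest adjusted p over them was 0.50 in cerebellum, 0.36 in hippocampus, 0.66 for the difference between regions, 0.42 averaged, and 0.41 and 0.15 for age in cerebellum and hippocampus. Of 672 recomputed gene values, 14 changed sign. Ndufa4 in cerebellum was -0.013 with array weights and -0.021 without cerebellum mutants 2 and 4, which left 27 members above 0 for the difference between regions. Without the hippocampus arrays with raised markers, Ndufa4 in hippocampus was -0.075, Ndufa4l2 in hippocampus 0.038, averaged Ndufb4 0.013, the hippocampus median 0.0074 and the structural minus assembly gap there 0.077. In that fit 9 members were above 0 for the difference between regions (median -0.078). For age in hippocampus, 10 members were above 0 after centring each array and 10 after quantile normalization. Age in hippocampus was not run without the raised-marker arrays, which hold every younger mutant. With 1 array left out at a time, Ndufa4 in cerebellum ran from -0.0085 to 0.089, Ndufa4l2 in hippocampus from -0.036 to 0.0049 and averaged Ndufb4 from -0.075 to 0.023. In cerebellum Ndufb8 ran from -0.067 to 0.0018, Ndufs3 from -0.057 to 0.020 and Ndufv3 from -0.056 to 0.0082. Ndufc2 by age in hippocampus ran from -0.0091 to 0.079. Members above 0 ran from 11 to 24 for the difference between regions, 13 to 39 for age in cerebellum and 6 to 10 for age in hippocampus.

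Same-numbered mutants and wild types correlated at -0.19 to 0.048 in cerebellum and -0.067 to 0.23 in hippocampus. The 0.23 was replicate 1, where both arrays had raised cerebellar markers. Same-numbered cerebellum and hippocampus arrays correlated at -0.175 to 0.128 in mutants and -0.054 to 0.167 in wild types. With 4 numbers per set, these values cannot decide whether replicate numbers pair the samples. With the replicate block 0 members were called. Every group holds each replicate number once, so this block cannot change the differences. The counts above 0 therefore had to stay at 39 in cerebellum and 34 in hippocampus.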

Other observations

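Probe sets that match a member and another gene or pseudogene were left out of the members' values and were tested apart, over 44904 probe sets with limma. Ndufa11, a membrane-arm subunit, shares 2 such probe sets with Ndufa11b. They differed by 0.015 (SE 0.073) and -0.036 (SE 0.069) in cerebellum and by 0.14 (SE 0.073) and -0.021 (SE 0.069) in hippocampus. Ndufs6, a matrix-arm subunit, shares 1 with Ndufs6b, which differed by 0.024 (SE 0.063) and 0.034 (SE 0.063). The 2 probe sets shared by Ndufa13 and Yjefn3 differed by 0.012 (SE 0.094) and 0.017 (SE 0.075) in cerebellum and by 0.20 (SE 0.094) and 0.022 (SE 0.075) in hippocampus.

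Members with several probe sets numbered 22. In cerebellum 14 of them had every probe set above 0 and 8 were mixed. In hippocampus 12 had every probe set above 0, 8 were mixed and 2 had none above 0.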
